A study of Mus musculus with 12 samples.

Results

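The neuregulin and ErbB genes described here are 6 genes: the ligands Nrg1 and Hbegf and the receptors Egfr, Erbb2, Erbb3 and Erbb4. They were taken by gene symbol, and each is represented by the probe set with the highest mean over the 12 arrays, out of 14 probe sets that carry one of these symbols alone. They are 6 of 18194 genes and 14 of 45101 probe sets on the Affymetrix arrays. The arrays carried RNA from ventricles of mouse embryos at 14.5 days post coitum (dpc), each array a pool of 15 to 30 embryos. The 4 groups, of 3 arrays each, were left ventricle and right ventricle of wild-type CD1 embryos (WT_LV and WT_RV) and the same chambers of Nos3-/- embryos of strain B6.129P2-Nos3tm1unc/J (KO_LV and KO_RV). No treatment is named for any group. Nos3 encodes endothelial nitric oxide synthase, and the allele is carried in every cell of the embryo. CD1 was the background of WT embryos alone, so every genotype comparison is one of strain as well, and allele and strain cannot be told apart.

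Neuregulin 1 is made by the endocardium, the inner lining of the heart, and binds ErbB4 and ErbB3 on neighbouring cells. ErbB2 binds no known ligand and signals as the partner of the other receptors, whereas ErbB3 has a kinase domain of very low activity and depends on such a partner. In the mouse heart, loss of Nrg1, Erbb2 or Erbb4 stops the growth of trabeculae, the muscular ridges on the inner ventricular wall, and loss of Erbb3 leaves the valve cushions poor in mesenchyme. HB-EGF binds EGFR and ErbB4, and loss of HB-EGF or of EGFR function gives thickened valves.

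All values are log2 expression as deposited, and all differences are on that scale, so that a difference of 1 is a doubling. The brightness of a probe set depends on its probes as well as on the RNA, so levels are compared between groups within a gene and not between genes. By mean over the 12 arrays, the sets used lay at percentile 81.8 of all probe sets for Hbegf, 80.2 for Erbb2, 67.7 for Erbb3 and 66.9 for Egfr. The only set of Nrg1 lay at percentile 28.9 and the only set of Erbb4 at 2.6. Both are dim, and no detection calls were used here to say whether they exceed background. A change of such a gene can be understated, and a dim value does not show that the gene is silent.

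**Figure D1:**
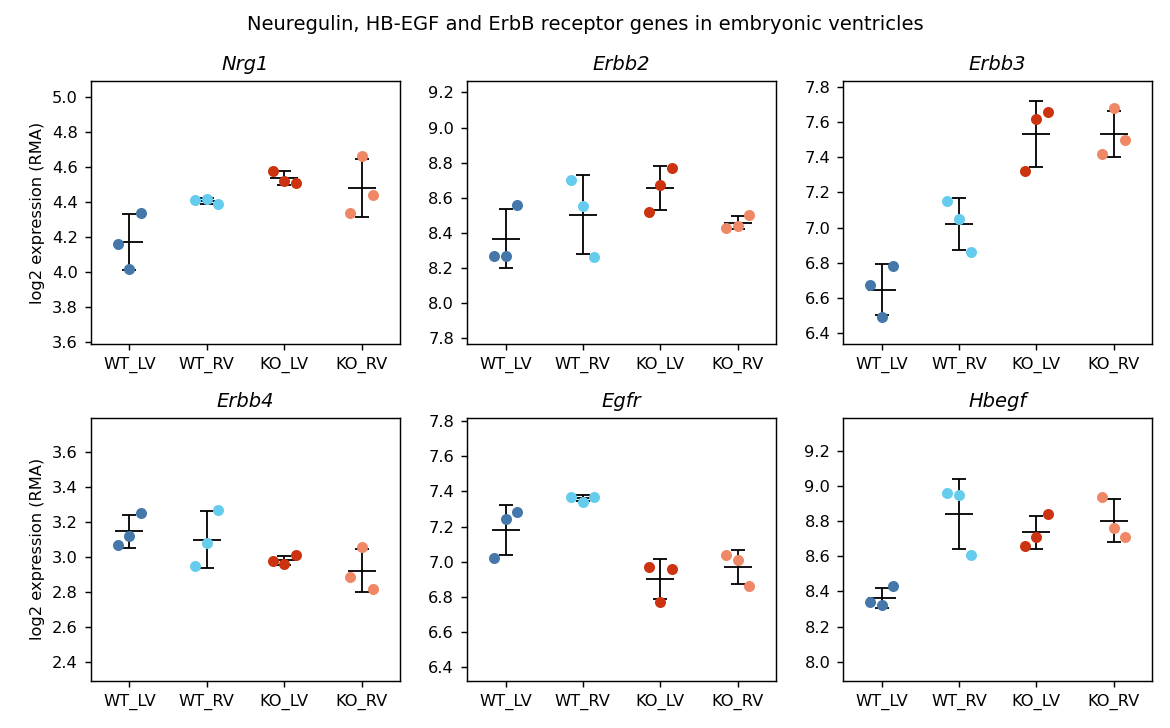
log2 expression of the 6 genes on each of the 12 arrays, by group (WT_LV, WT_RV, KO_LV, KO_RV), in panels that span the same number of log2 units. Points are arrays, the horizontal bar is the group mean and the whiskers are ± 1 SD (n = 3). The KO points of Erbb3 lie above all WT points and those of Egfr below nearly all of them, while for Hbegf only the WT left ventricles stand low.

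Several features of the arrays touch the results below. Nos3 itself was called lower in KO, by 0.41 in the left ventricle (adjusted p = 0.0376) and by 0.66 in the right ventricle (adjusted p = 0.00983), with limma and Benjamini-Hochberg adjustment over all genes as for every adjusted p that follows. Where its probes lie relative to the targeted region was not examined, so the level is a weak check of the genotype. Nos3 lies on chromosome 5, and none of the 6 genes does. The 24 probe sets for poly-A transcripts added before labelling averaged 8.89 to 8.96 on the 3 WT left ventricles and WT_RV replicate 3 and 7.35 to 8.47 on the other 8 arrays. Every KO array belonged to the lower set, so in the left ventricle the control level and the genotype cannot be told apart. In the right ventricle a value within the lower set is the one without WT_RV replicate 3. Nuclear noncoding transcripts (mean of Malat1, Meg3, Kcnq1ot1 and Airn) were highest on WT_LV replicate 2 (11.26) and lowest on KO_LV replicate 3 (8.64), and values without these arrays are given where they matter. The ventricles carried their tissue's markers: the 8 cardiomyocyte genes averaged 13.40 to 13.84 over the 12 arrays. Since the tissue was bulk, more cells of a type and more RNA per cell cannot be told apart.

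Nrg1, the endocardial ligand, measured 4.16, 4.02 and 4.34 on the WT_LV arrays against 4.58, 4.52 and 4.51 on the KO_LV arrays. On the other side of the heart it measured 4.41, 4.42 and 4.39 (WT_RV) against 4.34, 4.66 and 4.44 (KO_RV). The KO left ventricles lay above all WT arrays of either chamber, and the right ventricles of both genotypes overlapped. Nrg1 rose in the left ventricle by 0.36 (4.17 ± 0.16 against 4.54 ± 0.04, SD, n = 3 each, SE 0.10, limma adjusted p = 0.0146), which is a fold of 1.29. Its only set is dim (percentile 28.9), so this is a rise in the signal of that set, and its size need not be that of the transcript. The right ventricular difference was 0.07, with a 95% interval from -0.14 to 0.29 (limma adjusted p = 0.678).

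In order, the group means of Nrg1 were 4.17 in WT_LV, 4.41 in WT_RV, 4.48 in KO_RV and 4.54 in KO_LV, and of the neighbours in this order only WT_LV and WT_RV did not overlap. The left ventricular call was lost without WT_LV replicate 2 (0.29, adjusted p = 0.0676), with the poly-A control level as a term in the model (0.39, adjusted p = 0.0631) and without WT_LV replicate 2 and KO_LV replicate 3 (0.30, adjusted p = 0.111). Over 22 alternatives its adjusted p ran from 0.00371 to 0.111.

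Hbegf, the gene of heparin-binding EGF-like growth factor, measured 8.34, 8.32 and 8.43 on the WT_LV arrays against 8.66, 8.71 and 8.84 on the KO_LV arrays. Its right ventricular values were 8.96, 8.95 and 8.61 for WT_RV against 8.94, 8.76 and 8.71 for KO_RV. The WT left ventricles were below all 9 other arrays, and the other 3 groups overlapped one another. Hbegf rose in the KO left ventricle by 0.37 (8.36 ± 0.06 against 8.74 ± 0.09, SD, n = 3 each, SE 0.11, limma adjusted p = 0.0168), a fold of 1.29. Between right ventricles it differed by -0.04, with a 95% interval from -0.27 to 0.19 (limma adjusted p = 0.859). The second probe set of Hbegf, also bright, gave 0.28 in the left (adjusted p over all probe sets = 0.0393) and -0.01 in the right ventricle (0.95).

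The left ventricular call of Hbegf was lost without WT_LV replicate 2 (0.35, adjusted p = 0.0543), without KO_LV replicate 3 (0.32, adjusted p = 0.0706), without both (0.30, adjusted p = 0.147), with quantile normalization once more (0.27, adjusted p = 0.0512) and with the poly-A control term (0.21, adjusted p = 0.233). It held in 18 of 23 alternatives, with adjusted p from 0.0045 to 0.233. Among the WT right ventricles the high-control array, replicate 3, read 0.35 below the mean of the other 2 in Hbegf and 0.25 above the mean of the WT left ventricles, which have the same control level. The group means rose from 8.36 in WT_LV to 8.74 in KO_LV, 8.80 in KO_RV and 8.84 in WT_RV, and of the neighbours in this order only WT_LV and KO_LV did not overlap.

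Erbb3, the receptor with the weak kinase, showed the largest genotype difference of the 6 genes in both ventricles. WT_LV arrays gave 6.67, 6.49 and 6.78, and KO_LV arrays gave 7.32, 7.62 and 7.66. WT_RV arrays gave 7.15, 7.05 and 6.86, and KO_RV arrays gave 7.42, 7.68 and 7.50. All 6 KO arrays lay above all 6 WT arrays, and within WT the left ventricles lay below the right ventricles. Erbb3 rose by 0.89 in the left ventricle (6.65 ± 0.15 against 7.53 ± 0.19, SD, n = 3 each, SE 0.12, limma adjusted p = 0.000194), a fold of 1.85. It rose by 0.51 between right ventricles (7.02 ± 0.15 against 7.53 ± 0.13, n = 3 each, SE 0.12, limma adjusted p = 0.0174), a fold of 1.43.

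The group means of Erbb3 stood in the order WT_LV, WT_RV and then both KO groups, which had the same mean of 7.53. The left ventricular call held in 23 of 23 alternatives (adjusted p from 7.43e-05 to 0.00802), and with the poly-A control term the difference was 0.87. The right ventricular call held in 18 of 22 (adjusted p from 0.0145 to 0.118). It was lost without WT_RV replicate 3, that is within the low-control arrays (0.43, adjusted p = 0.0662), without KO_RV replicate 2 (0.44, adjusted p = 0.0726) and with the control term (0.50, adjusted p = 0.0648). The second probe set of Erbb3 is dim (percentile 29.5) and gave -0.12 in the left and -0.02 in the right ventricle, with 95% intervals from -0.32 to 0.08 and from -0.22 to 0.18. The rise was thus measured by the brighter set alone, and averaging both sets gave 0.38 in the left ventricle, called, and 0.245 in the right, not called (adjusted p = 0.118).

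Erbb2, the shared partner receptor, measured 8.27, 8.27 and 8.56 in the pools of WT_LV, against 8.52, 8.67 and 8.77 in those of KO_LV. For the right ventricle the values were 8.70, 8.55 and 8.26 (WT_RV) against 8.43, 8.44 and 8.50 (KO_RV). The genotypes overlapped in both chambers. The left ventricular difference, 0.29 (8.37 ± 0.17 against 8.65 ± 0.13, SD, n = 3 each), did not pass the test (limma adjusted p = 0.0828). Nor did the right ventricular one, -0.05 (8.50 ± 0.22 against 8.46 ± 0.04, adjusted p = 0.837 by limma). Their 95% intervals ran from 0.03 to 0.54 and from -0.30 to 0.21. The left value passed under 4 of 23 alternatives: with arrays centred on their medians (0.38, adjusted p = 0.0416), with array weights (0.31, adjusted p = 0.023), without WT_LV replicate 3 (0.38, adjusted p = 0.0335) and without WT_RV replicate 3 (0.29, adjusted p = 0.0392), out of a range up to 0.426. The 4 group means lay between 8.37 and 8.65, in the order WT_LV, KO_RV, WT_RV and KO_LV, and all neighbours in this order overlapped.

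Erbb4, the main neuregulin receptor of mouse ventricular muscle, measured 3.07, 3.12 and 3.25 for WT_LV against 2.98, 2.96 and 3.01 for KO_LV. The corresponding values were 2.95, 3.08 and 3.27 for WT_RV against 2.89, 3.06 and 2.82 for KO_RV. The left ventricles did not overlap, yet the difference of -0.16 did not pass the test (3.15 ± 0.09 against 2.98 ± 0.03, SD, n = 3 each, limma adjusted p = 0.233), nor did -0.18 in the right (3.10 ± 0.16 against 2.92 ± 0.12, limma adjusted p = 0.276). The order of means was KO_RV, KO_LV, WT_RV and WT_LV, with overlap between all neighbours. At this brightness, the 95% intervals of -0.38 to 0.05 and -0.39 to 0.04 bound the change in signal of this probe set rather than that of the transcript.

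Egfr, the receptor of HB-EGF and TGF-alpha, was the one gene called lower, in its brightest probe set. That set measured 7.02, 7.24 and 7.28 on the WT_LV arrays against 6.97, 6.77 and 6.96 on the KO_LV arrays. WT_RV arrays gave 7.37, 7.34 and 7.37, while KO_RV arrays gave 7.04, 7.01 and 6.86. KO lay below WT in each chamber, and the gap was narrow in the left, where the lowest WT array read 7.02 and the highest KO array 6.97. Egfr fell by 0.28 in the left ventricle (7.18 ± 0.14 against 6.90 ± 0.11, SD, n = 3 each, SE 0.09, limma adjusted p = 0.0371), to 0.824 of the WT level. Between right ventricles it fell by 0.39 (7.36 ± 0.02 against 6.97 ± 0.10, SE 0.09, limma adjusted p = 0.0219), to 0.763 of it. Its group means ascended from KO_LV (6.90) through KO_RV (6.97) and WT_LV (7.18) to WT_RV (7.36), and of the neighbours only WT_LV and WT_RV did not overlap.

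These calls were less stable than that of Erbb3 in the left ventricle. The left call of Egfr held in 14 of 23 alternatives (adjusted p from 0.0186 to 0.873). It was lost without any of WT_LV replicate 2 (-0.25, adjusted p = 0.11), WT_LV replicate 3 (-0.23, adjusted p = 0.115), KO_LV replicate 2 (-0.215, adjusted p = 0.155) and KO_LV replicate 3 (-0.31, adjusted p = 0.0572), and with median centring (-0.19, adjusted p = 0.205). It was also lost with the control term (-0.33, adjusted p = 0.0857), with the 2 left ventricular groups fitted alone (-0.28, adjusted p = 0.0681) and without WT_LV replicate 2 and KO_LV replicate 3 together (-0.28, adjusted p = 0.135). The right call held in 16 of 22 (adjusted p from 0.0138 to 0.332). It was lost with median centring (-0.35, adjusted p = 0.0568) and without any of WT_RV replicate 2 (-0.40, adjusted p = 0.0527), WT_RV replicate 3 (-0.385, adjusted p = 0.0534), KO_RV replicate 2 (-0.41, adjusted p = 0.0508) and KO_RV replicate 3 (-0.335, adjusted p = 0.0909).

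The other 6 sets of Egfr did not show one direction. In the left ventricle they gave 0.32, -0.31, 0.18, 0.32, -0.20 and 0.11 from the brightest to the dimmest, and in the right ventricle 0.10, -0.23, -0.10, -0.23, -0.20 and 0.17. None of these passed over all probe sets, the lowest adjusted p being 0.0509, for a set with 0.32 in the left ventricle. They lay between percentile 11.0 and percentile 50.1 of all sets, against 66.9 for the set used. The mean of the 7 sets turned the left ventricular difference of Egfr to 0.02 and reduced that in the right to -0.12 (adjusted p = 0.332). Which transcripts of Egfr each set reads, and whether its probes bind equally in both strains, was not tested.

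**Figure D2:**
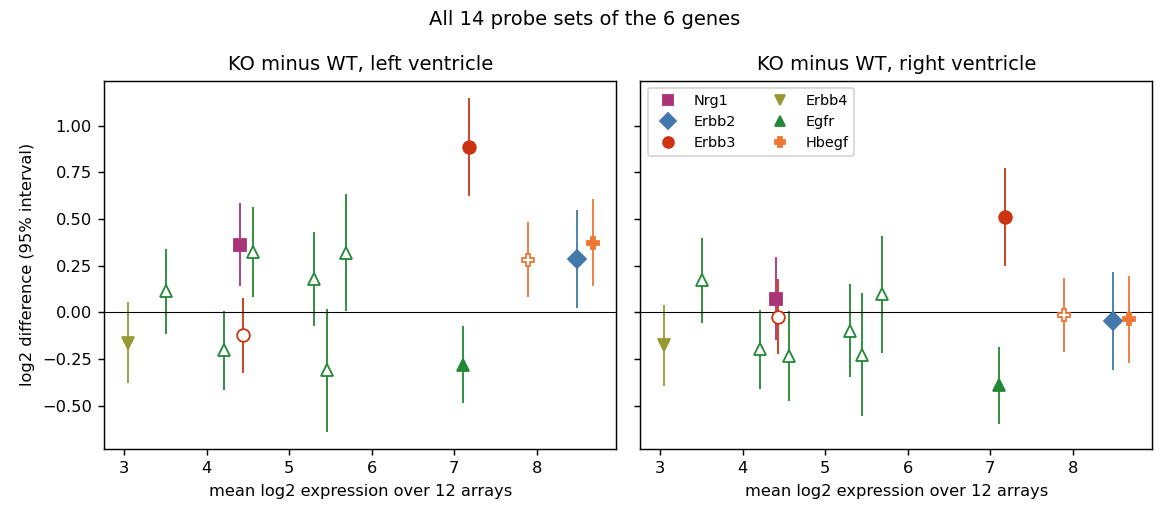
Difference between KO and WT (log2, with 95% interval) against mean log2 expression over the 12 arrays for all 14 probe sets of the 6 genes, in the left ventricle (left panel) and the right ventricle (right panel). Filled symbols are the sets used and open symbols the others. Both sets of Hbegf agree in each chamber, the 2 sets of Erbb3 differ, and the 7 sets of Egfr fall on both sides of 0.

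Counted together, 3 of the 6 genes rose in the KO left ventricle (Nrg1, Erbb3 and Hbegf), 1 fell (Egfr) and 2 did not pass the test, where 30.9% of all genes were called, 18.6% higher and 12.3% lower. The median difference was 0.33 for the 6 genes and -0.01 for all genes. Between right ventricles 1 rose (Erbb3) and 1 fell (Egfr), where 8.19% of all genes were called, 4.61% higher and 3.58% lower, and the medians were -0.04 and -0.04. The values of KO and WT did not overlap for 5 of the 6 genes in the left and 2 of the 6 in the right ventricle. The same held for 44.4% of all genes in the left (23.8% with KO higher and 20.6% lower) and 29.4% in the right ventricle (11.8% and 17.6%). Of the called genes 60.1% were higher in KO in the left and 56.2% in the right ventricle, against 77.9% and 69.5% with arrays centred on their medians. With 3 against 3 arrays a two-sided exact permutation test of one gene cannot give a p below 0.1.

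The number of the 6 genes called changed with the libraries used. In the left ventricle it was 4 in all, where 30.9% of all genes were called. It was 1 (Erbb3) with the poly-A control term (14.1% of all genes), without WT_LV replicate 2 (23.7%) and without WT_LV replicate 2 and KO_LV replicate 3 together (15.0%), and 2 (Nrg1 and Erbb3) without KO_LV replicate 3 alone (22.3%). Between right ventricles it was 2 in all, where 8.19% of all genes were called. It was 0 without WT_RV replicate 3 (5.31% of all genes) or KO_RV replicate 2 (4.97%), and 1 (Erbb3) without WT_RV replicate 2 (5.62%) or KO_RV replicate 3 (4.59%). In each of these settings the share of all genes called fell too, but a lower share did not always go with fewer calls among the 6. Erbb3 and Egfr kept their right ventricular calls without KO_RV replicate 1, where 4.19% of all genes were called. No left ventricular call was lost without WT_LV replicate 1 (25.3%). The control term cannot separate control level from genotype in the left ventricle, because no WT left ventricle shared its level with a KO array. In the right ventricle the control levels of WT_RV replicates 1 and 2 (8.05 and 8.13) lay within the KO_RV range (7.35 to 8.37). The part of the control level was not tested beyond these fits.

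**Figure D3:**
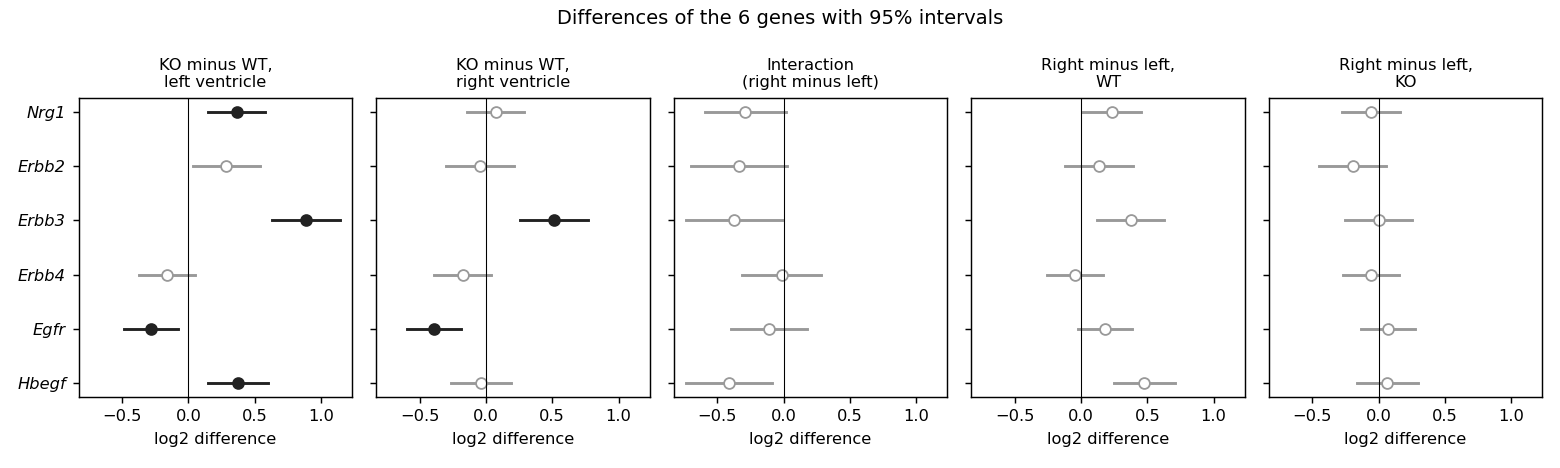
Differences of the 6 genes (log2, point with 95% interval from limma) in the 5 comparisons, one panel each. Filled black points are called at limma adjusted p under 0.05 and open grey points are not. Calls appear in the 2 genotype comparisons alone, 4 in the left and 2 in the right ventricle.

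Whether the genotype difference depended on the chamber was tested as an interaction, the difference in the right minus that in the left ventricle. Limma called 0 of the 6 genes, 2 had an unadjusted p under 0.05, and 0.022% of all genes were called. The interaction was -0.41 for Hbegf (95% interval -0.73 to -0.09, limma adjusted p = 0.314), -0.37 for Erbb3 (-0.73 to -0.01, adjusted p = 0.345), -0.33 for Erbb2 (adjusted p = 0.381) and -0.29 for Nrg1 (adjusted p = 0.37). It was -0.11 for Egfr and -0.01 for Erbb4. A rise of Nrg1 or Hbegf confined to the left ventricle was therefore not shown. Without WT_RV replicate 3 the interaction of Hbegf was -0.525 and was called (adjusted p = 0.0343, of a range from 0.0343 to 0.668 over 23 alternatives), in a fit that called 7.19% of all genes.

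Between the chambers of WT hearts limma called 0 of the 6 genes, 3 had an unadjusted p under 0.05, and 0.984% of all genes were called. Hbegf was 0.48 higher in the right ventricle (95% interval 0.25 to 0.71, limma adjusted p = 0.0531), a fold of 1.39, and Erbb3 0.37 higher (0.12 to 0.63, adjusted p = 0.147). For Nrg1 the difference was 0.23 (adjusted p = 0.262) and for Egfr 0.18 (adjusted p = 0.348). For these 4 genes all right ventricles lay above all left ventricles, as did 10.9% of all genes. The difference of Hbegf was called in 7 of 24 alternatives (adjusted p from 0.00465 to 0.243), among them without WT_RV replicate 3 (0.59, adjusted p = 0.00465) and without WT_LV replicate 3 (0.51, adjusted p = 0.0483). Erbb3 was called in 2 of 24, without WT_RV replicate 3 (0.45, adjusted p = 0.0409) and with array weights (0.44, adjusted p = 0.0296, of a range up to 0.444). Among arrays of the higher control level, WT_RV replicate 3 exceeded the mean of the WT left ventricles by 0.25 in Hbegf, 0.21 in Erbb3, 0.22 in Nrg1 and 0.19 in Egfr. The WT left ventricles are also the reference of the left ventricular genotype comparison, so these values and those above share arrays.

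Between the chambers of KO hearts limma again called 0 of the 6, none had an unadjusted p under 0.05, and 1.14% of all genes were called. The difference, right minus left, was 0.00 for Erbb3 (95% interval -0.25 to 0.25) and 0.07 for Hbegf (-0.16 to 0.30). For Nrg1 it was -0.06 and for Erbb2 -0.20 (adjusted p = 0.643). Erbb2 was the only one of the 6 whose KO chambers did not overlap, with the right ventricles lower, as for 10.4% of all genes.

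Genes with a profile most like each of the 6 were found by the root mean square difference of log2 values centred on each gene's mean, over the 12 arrays and among genes brighter than the median gene. Erbb3 itself spread by 0.39 around its mean on this measure, and Cand2, Dtx3l and Synpo2 differed from it by 0.06, 0.08 and 0.09. For Hbegf, which spread by 0.22, Bicd2, Fam234a and Nomo1 were nearest, each at 0.07. Egfr spread by 0.20, with Pxmp4 at 0.08, Baiap2l1 at 0.08 and Myoz1 at 0.09. The spreads of Nrg1 (0.17), Erbb2 (0.16) and Erbb4 (0.13) were smaller. Their nearest genes were Rusc2, Rab43 and Kat7 for Nrg1, Exoc8, Mtdh and Ssbp3 for Erbb2, and Thap7, Tssc4 and Armc9 for Erbb4, at 0.06 to 0.08. The 12 arrays fall into groups, so a small difference mostly reflects like group means.

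The rest of the pathway was described by 7 lists. They were chosen with earlier results of these data known, so their counts are not independent evidence. These counts stand beside 18.6% of all genes called higher and 12.3% lower in the left ventricle. In the right ventricle the shares were 4.61% and 3.58%. With dim genes left out, 3441 of 12127 genes were higher and 2161 lower in the left ventricle, 46.2% in all. In the right ventricle 900 were higher and 585 lower, 12.2% in all. Among the other EGF-family ligands, 1 of 8 measured genes rose in the KO left ventricle, Tgfa, which encodes TGF-alpha, a ligand of EGFR (6.58 ± 0.11 in WT, 7.33 ± 0.11 in KO, SD, n = 3 each, difference 0.75, limma adjusted p = 0.000788). The other sets of Tgfa, both dimmer, gave -0.03 and 0.11, and with the mean of its sets the difference was 0.27 and not called (adjusted p = 0.0639). The right ventricle had 0 of 8 called, with Tgfa at 0.18. Egf, Btc, Ereg, Epgn, Nrg2, Nrg3 and Nrg4 lay between -0.17 and 0.03 in the left ventricle. The list's median was -0.04 in the left and -0.08 in the right ventricle.

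Membrane-bound ligands of the family are released by proteases. Of 12 genes of ligand shedding 7 rose and 0 fell in the left ventricle, with a median of 0.63. The largest rises were those of Adam19, a protease known to process neuregulin (9.06 ± 0.09 against 10.20 ± 0.11, difference 1.14, adjusted p = 0.000229), Mmp14 (0.95, adjusted p = 4e-04) and Adam10 (0.83, adjusted p = 0.000701). Between right ventricles 3 rose and 1 fell: Adam9 (0.62), Adam19 (0.59), Adam17, the main sheddase of TGF-alpha and HB-EGF (0.43, adjusted p = 0.0472), and the inhibitor Timp3 (-0.80, adjusted p = 0.00508). Other probe sets above the median of all values gave 0.05 for Adam19, -0.02 and -0.12 for Adam17 and 0.02 and 0.20 for Timp3 there, so these right ventricular calls rest on one set each. The call of Adam17 there was lost in 15 of 22 alternatives (adjusted p up to 0.551) and that of Adam19 in 7 of 22 (up to 0.167). In the left ventricle a second set of Adam19 gave 0.44, and further sets gave 0.46 and 0.91 for Mmp14 and 0.48 and 0.79 for Adam10.

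Of 12 surface partners, molecules known to hold ligands or receptors of the family at the membrane, 6 rose and 0 fell in the left and 3 rose and 1 fell in the right ventricle (medians 0.30 and 0.02). Itga6, a laminin receptor subunit, rose by 1.21 in the left ventricle, and Cd44, a hyaluronan receptor, by 0.85 in the left and 0.60 in the right, where a second set of Cd44 gave 0.91 and 0.62. Sdc1, a heparan sulfate proteoglycan, rose by 0.43 and the mucin Muc1 fell by 0.53 in the right ventricle. Other sets of Sdc1 gave 0.19 and -0.05. The right ventricular calls of Cd44 and Sdc1 were lost in 7 and 6 of 22 alternatives (adjusted p up to 0.208 and 0.6). Cd9, a tetraspanin that associates with the HB-EGF precursor, read -0.13 and -0.04 and was not called. Sdc4 was called higher in both ventricles (0.81 and 0.74) and is in both counts of rises, while its other bright set read -1.22 and -1.59. With the mean of its sets it was called lower in the right ventricle (-0.42, limma adjusted p = 0.0248), so no direction can be given.

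Among 28 measured genes of adaptors and of the PI3K, Ras and ERK cascades 16 rose and 2 fell in the left and 3 rose and 0 fell in the right ventricle (medians 0.33 and 0.09). In the left ventricle the docking protein Gab2 rose by 0.86, the PI3K catalytic subunit Pik3cb by 0.80 and the Ras activator Sos2 by 0.70. The other sets of Gab2, both below the median of all values, gave -0.25 and 0.23. The adaptor Nck1 fell by 0.68, where another set gave -0.07 and a dimmer set -0.62. Vav2 was lower by 0.28 in the set used and higher by 0.41 in another. Between right ventricles Pik3r3, a PI3K regulatory subunit, rose by 0.49 and Sos2 by 0.48.

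Genes that restrain ErbB signals and genes that respond to ERK, the kinase at the end of the Ras cascade, were called higher in the left ventricle as well. These lists are not separate sets: Spry2 and Spry4 stand in both. Etv1 was listed for both ERK response and trabecular genes. Of 24 restraint genes 15 rose and 0 fell in the left and 2 rose and 0 fell in the right ventricle (medians 0.345 and 0.115). The right ventricular count is near the share of all genes called there. The ubiquitin ligase Cbl, which marks active receptors for degradation, rose by 0.88 in the left (adjusted p = 0.00138) and by 0.58 in the right ventricle (adjusted p = 0.0404). The right ventricular call of Cbl was lost in 12 of 22 alternatives (adjusted p up to 0.195), among them without WT_RV replicate 3 (0.38, adjusted p = 0.131). Lrig1, a membrane protein that lowers receptor levels, rose by 0.66 in the left, with 0.72 in a second set. Spred2 gave 0.70, but its other sets above the median ran from -0.31 to 0.28. Erbin, an ErbB2-binding scaffold, rose by 0.51 in the right ventricle.

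Of 15 ERK response genes 9 rose and 0 fell in the left and 3 rose and 0 fell in the right ventricle (medians 0.39 and 0.10). Etv5, an ETS transcription factor, rose from 7.24 ± 0.05 to 8.24 ± 0.28 in the left (SD, n = 3 each, difference 1.00, adjusted p = 0.000109) and by 0.55 in the right ventricle (adjusted p = 0.0144). Its other sets, both below the median of all values, gave -0.07 and 0.09 in the left and -0.19 and 0.26 in the right ventricle. The ERK phosphatase Dusp4 rose by 0.90 and Ier3 by 0.70 in the left. Between right ventricles Dusp6, another ERK phosphatase, was called at 0.37 (adjusted p = 0.0476) and Ier3 at 0.42 (adjusted p = 0.0499), both near the threshold, and each call was lost in 15 of 22 alternatives (adjusted p up to 0.216 and 0.199). That of Etv5 was lost in 4 of 22 (up to 0.254). Of 14 genes tied to Nrg1 in trabeculae 12 rose and 0 fell in the left and 2 rose and 0 fell in the right ventricle (medians 0.62 and 0.22). Vcan, the core protein of versican in the cardiac jelly, rose by 1.77 in the left and 1.26 in the right ventricle. Irx3, a transcription factor of trabecular and conduction muscle, rose by 1.29 and 0.77. Adamts1, a protease that degrades the jelly, rose by 1.00 in the left ventricle. Several of these trabecular genes were known to be higher here when the list was drawn up. Its count, like those of the other lists, is therefore not independent evidence.

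**Figure D4:**
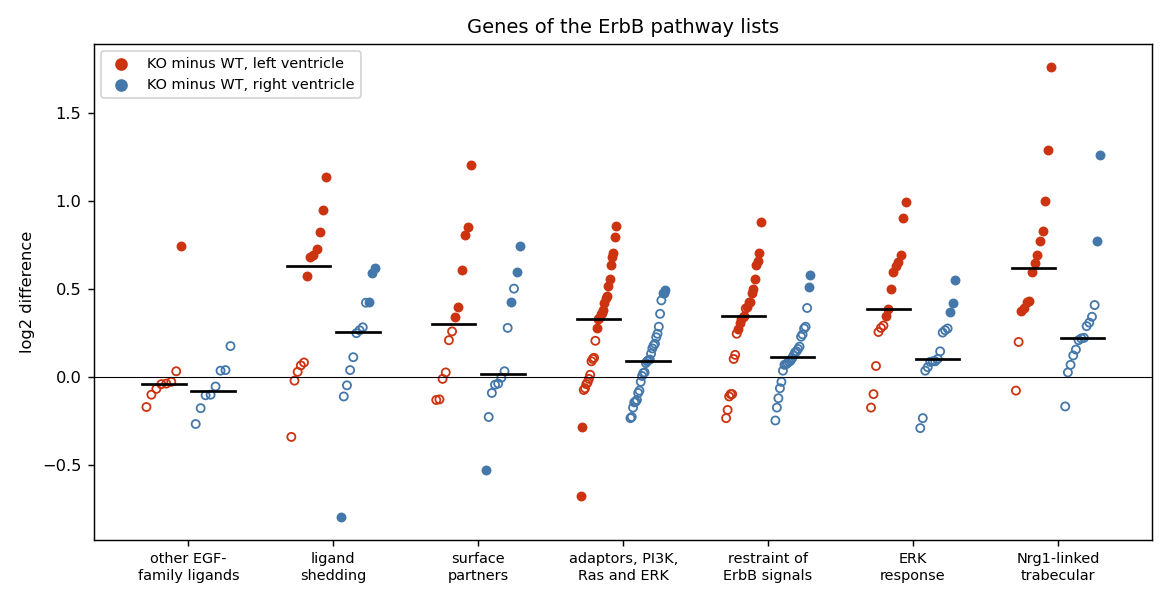
Difference between KO and WT (log2) of every measured gene in the 7 pathway lists, in the left (red) and the right ventricle (blue). Filled points are called at limma adjusted p under 0.05, open points are not, and black bars are list medians. Medians lie above 0 in the left ventricle for 6 lists, from 0.30 to 0.63, and near 0 for the other EGF-family ligands.

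Fewer genes of most lists, and fewer of all genes, were called under the settings that follow. With the poly-A control term the left ventricular rises numbered 6 of 12 for shedding, 4 of 12 for surface partners and 7 of 28 for adaptors. They numbered 7 of 24 for restraint, 5 of 15 for ERK response and 7 of 14 for trabecular genes. Of all 18194 genes 1773 were then called higher and 785 lower, 14.1% in both directions. Without WT_LV replicate 2 and KO_LV replicate 3 the rises were 6, 4, 8, 8, 6 and 6. There 1720 of all genes were higher and 1018 lower, 15.0% in both directions. Within the low-control arrays the right ventricular rises were 1, 1, 2, 1, 0 and 2. There 556 of all genes were higher and 411 lower, 5.31% in both directions. Between chambers few of these genes were called. Wwp1, a ubiquitin ligase, was 0.43 higher in the WT right ventricle (adjusted p = 0.0382), a call lost in 17 of 24 alternatives (adjusted p up to 0.222). Nppa, the gene of atrial natriuretic peptide, was 0.59 lower there in WT (adjusted p = 0.0499, lost in 14 of 24) and 0.61 lower in KO (adjusted p = 0.037, lost in 11 of 24). Gja5, a gap junction gene, was 1.32 lower in the KO right ventricle (4.72 ± 0.12 against 6.04 ± 0.60 in KO_LV, SD, n = 3 each, adjusted p = 0.00543). This call held in 23 of 23 alternatives, but with dim genes left out Gja5 had no value. Its means in WT_LV (5.27), WT_RV (4.89) and KO_RV lay below the median of all values (5.67), and its KO_LV arrays scattered most.

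Markers of the cells known to carry these ligands and receptors are given as values beside the results. Their counts too stand beside 30.9% of all genes called in the left and 8.19% in the right ventricle. Of 10 markers of endothelium and endocardium, the source of Nrg1, 7 rose and 1 fell in the KO left ventricle. In the right ventricle, where Nrg1 was not called, 2 rose and 0 fell. Their mean ran from 8.70 to 8.87 on WT and from 9.26 to 9.37 on KO left ventricles, and from 8.82 to 9.15 and 9.17 to 9.27 on right ventricles. Of 8 genes of cushion and interstitial mesenchyme, where Erbb3 is known to act, 2 rose and 1 fell in the left ventricle. Their mean ran from 9.79 to 10.03 on WT and from 10.04 to 10.32 on KO left ventricles, and from 9.59 to 9.97 and 9.47 to 9.99 on right ventricles, where 0 rose and 1 fell. Of 8 epicardial genes 2 rose and 1 fell in the left ventricle, with means of 8.48 to 8.96 on WT and 8.60 to 8.93 on KO arrays. The gene that fell was Tcf21 in both the mesenchymal and the epicardial list. Both left ventricular counts are near the share of all genes called there.

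Schwann cells and neural crest also express Erbb3. Of their 5 measured genes 0 rose and 1 (Fabp7, at -2.29) fell in the KO left ventricle, and Sox10 read 6.77 ± 0.06 in WT and 6.63 ± 0.13 in KO (SD, n = 3 each). Sox10 was not called (limma adjusted p = 0.322), nor were Foxd3 (-0.30), Cdh19 (-0.02) and Ngfr (0.11). The list's mean was 5.96 to 6.23 on WT and 5.52 to 5.61 on KO left ventricles. Fabp7 had by far the largest difference of the list, so this mean does not describe its other genes. Of 8 cardiomyocyte genes 2 rose and 0 fell in the left and 0 were called in the right ventricle, of 7 smooth muscle and pericyte genes 4 rose and 2 fell in the left, and of 6 leukocyte genes 6 rose in the left and 3 in the right ventricle. Of 5 erythroid genes 1 rose and 1 fell and of 5 liver genes 0 rose and 2 fell in the left ventricle. The part of these cell types in the differences of the 6 genes was not tested.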

How the data were processed

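Per the labels' protocols, biotin-labelled cRNA from 100 ng of RNA per pool went onto the 12 Affymetrix arrays. The authors deposited log2 values made with RMA, as the submitters' processing notes state without a version; no source used here gives the annotation. RMA equalises the distributions of arrays, so a shift common to most genes would be removed, and it compresses dim sets. All 12 columns matched a sample label, and 0 were left unused.

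A single symbol was given to 34958 probe sets, several to 932 and none to 9211, and 34754 were found by gene ID in RefSeq's table (GRCm38.p6). The brightest set stood for each of 18194 genes. The titles gave the groups and do not say whether pools were separate litters, so p-values reflect only the variation among pools, which may be technical, and the number of arrays limits the precision. One limma fit (lmFit, eBayes) held a mean for each group over all 12 arrays, with Benjamini-Hochberg adjustment over all genes at 0.05; it was tested on simulated data. The alternatives were median centring, renewed quantile normalization, a dim-gene filter, trended robust variances, weights for arrays, replicate blocks, the compared groups alone, the mean of a gene's sets, each set alone, a poly-A control term and the removal of each array. Leaving aside the 2 arrays of extreme nuclear RNA was chosen after seeing the data. The 6 genes, the lists and the control term were chosen with earlier results of these data known.

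The rule for names took from each list up to 3 called genes per direction in a genotype comparison and up to 2 in a chamber comparison. Cd9, uncalled ligands and the marker genes given singly, such as Fabp7 and Sox10, were named after their values were seen. Deviations of same-numbered arrays from their group means correlated across genes at 0.111 to 0.306 between WT and KO right ventricles. Between the KO chambers the correlations were 0.21 to 0.291. Lower values occurred between the left ventricles (lowest 0.011) and the WT chambers (lowest -0.008). They ran from -0.072 to 0.242 between WT_LV and KO_RV and from -0.185 to 0.132 between WT_RV and KO_LV. Arrays of unlike number were not compared, so these values cannot show whether the numbers mark pairs. No label states a pairing. Software: limma 3.58.1 in R 4.3.3, with matplotlib 3.10.9 and scipy 1.17.1 in Python 3.11.15.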

Additional observations from a re-analysis of the deposited data

How the results depend on the processing

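Of 686 values of the 6 genes under alternatives 628 kept their direction and side of the threshold, 26 lost a call, 14 gained one and 18 turned sign. The 628 include 24 values of Erbb3 between KO chambers (-0.11 to 0.06), whose main difference of 0.00 had no direction to keep. Of 973 values of the named pathway genes 821 kept direction and side, 149 lost a call and 3 turned sign. Of the 6 genes 4 were called in the left ventricle, but 1 with the poly-A control term, 1 without the 2 arrays of extreme nuclear RNA and 1 to 5 without single replicates. In the right ventricle 2 were called, but 1 with median centring, 1 with the control term, 0 with the mean of the probe sets and 0 to 2 without single replicates. The interaction gave 0 to 1 without single replicates, and the chambers of WT gave 0 to 2, with 1 under quantile normalization, the dim filter, trend and robust variances and the mean of the probe sets, and 2 with array weights. The cause of these changes was not tested.

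With the mean of the probe sets, the sign turned in the left ventricle for Egfr (0.021), Sdc4 (-0.20) and Vav2 (0.088), in the right for Sdc4 (-0.42) and between KO chambers for Egfr (-0.038). With the control term it turned between WT chambers for Erbb4 (0.017) and between KO chambers for Hbegf (-0.03), and without the 2 arrays of extreme nuclear RNA in the interaction of Erbb4 (0.013). Without single replicates, uncalled values spanned 0. Right ventricular differences ran from -0.017 to 0.14 for Nrg1, from -0.17 to 0.052 for Erbb2 and from -0.15 to 0.023 for Hbegf. Those between WT chambers ran from -0.13 to 0.028 for Erbb4, and those between KO chambers from -0.15 to 0.013 for Nrg1 and from -0.0017 to 0.12 for Hbegf. The interaction of Erbb4 ran from -0.088 to 0.072.

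With the replicate number as a block 4 of the 6 genes were called in the left and 2 in the right ventricle, and 0 in the other comparisons. With the block within genotype Wwp1 lost its call between WT chambers (0.43, adjusted p = 0.0523). Over all genes the left ventricle gave 5617 calls, against 2558 with the control term and 2738 without the 2 arrays. The right gave 1490, with a range of 762 to 2858, the interaction 4 (1 to 1364, with 1309 without WT_RV replicate 3), WT chambers 179 (41 to 2212, with 1734 without that array) and KO chambers 208 (96 to 684). Of the 6 genes the dim filter removed Nrg1 and Erbb4, so it gave no value for them. It also gave none for the named pathway genes Gja5 and Muc1.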
